A study of Mus musculus with 4 samples.

Results

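The genes described here carry peptides to the cell surface on MHC class I molecules: Nlrc5, H2-K1, H2-D1, B2m, Tap1, Tap2, Tapbp, Psmb8, Psmb9 and Psmb10. They were taken by name, without use of their values, as every probe whose RefSeq accession belongs to 1 of these 10 symbols. That gave 12 probes for 10 genes, of 32395 genes or accessions with a probe on the array. On all 4 arrays each of the 12 probes was well above background for both genotypes and none was saturated, so no member was lost to the filter on dim probes.

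The study compared bone marrow macrophages of Cdk5r1 knockout mice with those of wildtype mice, at rest and after lipopolysaccharide (LPS), a molecule of the outer membrane of bacteria that triggers an inflammatory response. Cdk5r1, written CDK5R1 in the labels, codes for p35, through which the kinase CDK5 becomes active. There were 2 LPS and 2 basal 2-colour arrays, each with knockout RNA in the Cy5 channel and wildtype RNA in the Cy3 channel, so each genotype was measured 2 times per condition. All cells came from male mice aged 6 weeks, with the strain given as B6.129S4-Cdk5r1tm1Lht/J for both genotypes, and were cultured 7 days in 25 ng/ml GM-CSF, a factor for myeloid growth. The LPS cells received 100 ng/ml of Escherichia coli LPS for 6 h, and the basal cells were not stimulated. The labels call the arrays biological replicates and name no animals, so p-values measure the spread between these samples. The labels name no cell type-specific driver for the knockout.

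Nearly every cell shows fragments of its own proteins on MHC class I. The proteasome cuts proteins into peptides, the TAP1 and TAP2 transporter moves them into the endoplasmic reticulum, tapasin (Tapbp) holds the transporter near empty class I molecules, and a heavy chain (H2-K1 or H2-D1) leaves for the surface with beta-2-microglobulin (B2m) and the peptide. Psmb8, Psmb9 and Psmb10 encode catalytic subunits that replace Psmb5, Psmb6 and Psmb7 in the immunoproteasome, a form common in immune cells and after interferon. NLRC5 is the coactivator of class I genes: it binds no DNA itself and acts through a complex of RFX, CREB/ATF and NF-Y proteins on the X and Y boxes of their promoters. Interferon response elements and kappaB sites lie upstream of these boxes in classical class I genes.

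The sequences below show the stretch through which class I genes are known to be switched on. They are RefSeq promoter windows of build GRCm38.p6, each with 250 bases before and 50 bases from the gene's start on. A window was found for 8 of the 10 genes, not for Tap2 and Nlrc5. Capitals mark, in this order, a kappaB-type match (GGGA, any base, T, any 2 bases, CC), an interferon response core (GAANNGAAA), the X2 core (TGACG) and a reverse Y box (ATTGG, the other strand of CCAAT). In Tap1, capitals mark the CCAAT and TGACG matches.
H2-K1 (chr17:34000284-34000583, minus strand): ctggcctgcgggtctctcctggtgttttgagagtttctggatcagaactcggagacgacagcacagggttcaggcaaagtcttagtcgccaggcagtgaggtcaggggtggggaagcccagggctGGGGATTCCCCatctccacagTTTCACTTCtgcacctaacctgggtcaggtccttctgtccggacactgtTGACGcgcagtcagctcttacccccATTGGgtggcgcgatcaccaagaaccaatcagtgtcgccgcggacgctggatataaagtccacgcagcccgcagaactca
H2-D1 (chr17:35262844-35263143, plus strand): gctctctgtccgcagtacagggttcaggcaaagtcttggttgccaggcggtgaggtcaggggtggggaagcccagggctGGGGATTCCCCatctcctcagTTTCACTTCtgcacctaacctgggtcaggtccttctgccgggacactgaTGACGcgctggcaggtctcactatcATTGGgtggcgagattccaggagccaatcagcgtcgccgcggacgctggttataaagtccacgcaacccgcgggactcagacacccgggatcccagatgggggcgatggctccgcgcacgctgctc
B2m (chr2:122147437-122147736, plus strand): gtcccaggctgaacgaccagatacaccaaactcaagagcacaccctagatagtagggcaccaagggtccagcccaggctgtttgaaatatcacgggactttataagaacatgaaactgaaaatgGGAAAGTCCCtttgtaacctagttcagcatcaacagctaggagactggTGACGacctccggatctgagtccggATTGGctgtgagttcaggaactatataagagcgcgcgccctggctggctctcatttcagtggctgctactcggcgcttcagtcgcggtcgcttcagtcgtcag
Tap1 (chr17:34187306-34187605, plus strand): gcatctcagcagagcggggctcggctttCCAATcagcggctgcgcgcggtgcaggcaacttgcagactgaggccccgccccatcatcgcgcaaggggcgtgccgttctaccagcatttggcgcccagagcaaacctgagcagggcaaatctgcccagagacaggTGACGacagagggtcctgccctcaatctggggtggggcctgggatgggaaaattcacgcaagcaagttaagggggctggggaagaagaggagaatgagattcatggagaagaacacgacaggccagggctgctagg

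H2-K1, H2-D1 and B2m each held TGACG followed by ATTGG after exactly 20 bases. With a gap of 15 to 25 bases, this pair was present in 0.435% of the 32851 promoter windows of the mouse table, searched on both strands. TGACG alone was in 20.8% of windows and CCAAT alone in 37.4%. The pair was not in the windows of Tap1, Tapbp, Psmb8, Psmb9 or Psmb10, which says only that these letters were not in that stretch. The kappaB-type letters were found in H2-K1, H2-D1 and B2m, against 4.16% of all windows, and matches on both strands of H2-K1 and H2-D1 overlap. The interferon response core, in the spelling searched, was found in H2-K1 and H2-D1, against 7.52% of all windows. The B2m window holds gaaactgaaa, with a longer gap between GAA and GAAA, and that spelling was not searched. The windows of H2-K1 and H2-D1 were identical at 89.5% of 239 aligned bases, and those of Tap1 and Psmb9 share 275 bases, because these 2 genes start 226 bases apart on opposite strands. The letters searched were chosen after the sequences were seen, and a match is a description of sequence, not a measured binding site.

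Most class I genes were higher after LPS in both genotypes. In knockout cells 9 of 10 genes were higher after LPS by limma (adjusted p under 0.05), where 18.9% of all 23570 genes tested were higher. In wildtype cells 9 of 10 were higher, where 18.1% of all genes were. The exceptions were Psmb8 in knockout cells and B2m in wildtype cells. The median change of the 10 genes was 1.095 on the log2 scale in knockout cells and 1.03 in wildtype cells, beside medians of -0.015 and -0.0081 over all genes. The plot of the LPS response shows an order that was nearly the same in both genotypes, led by Nlrc5, Tap1, Tapbp and Psmb9. That order of the first 4 held in 14 of 15 alternative settings in each genotype, and did not when the probes of a gene were averaged.

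**Figure D1:**
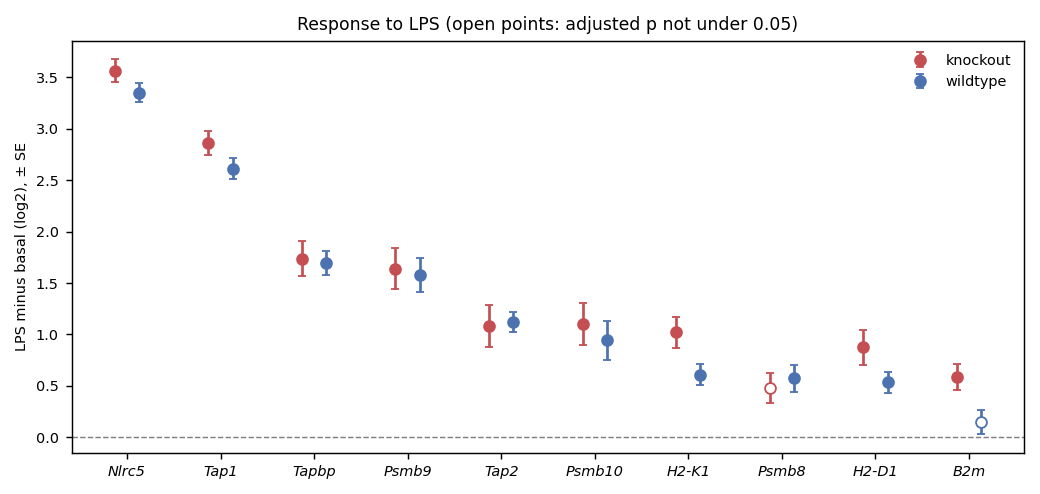
Change after LPS of each of the 10 genes in knockout cells (red, left of each pair) and wildtype cells (blue). The vertical axis is LPS minus basal on the log2 scale, points are limma estimates from 2 arrays per condition, bars are standard errors, and open points have an adjusted p of 0.05 or more. Nlrc5 lies highest, at 3.57 in knockout and 3.35 in wildtype cells, and all 20 estimates lie above 0.

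Nlrc5, the coactivator, had the widest change of the 10 genes. Its normalised level (log2 intensity) was 14.71 and 14.74 in knockout cells with LPS, against 11.24 and 11.08 in basal knockout cells. In wildtype cells it was 14.81 and 14.85 with LPS, against 11.53 and 11.42 at rest. The LPS samples stood apart from the basal samples in both genotypes, and the 2 samples of a condition differed by far less than the conditions did. Here and for the genes below, the share of all genes whose samples separate in this way is not given. Such separation of 2 samples from 2 is therefore a description, not a test. The increase was 11.8-fold in knockout cells (log2 3.57 ± 0.11 SE, limma adjusted p = 0.000536) and 10.2-fold in wildtype cells (3.35 ± 0.095, adjusted p = 0.000281). A dimmer second probe of Nlrc5 was also higher with LPS, by 1.22 ± 0.098 in knockout and 1.35 ± 0.13 in wildtype cells (adjusted p = 0.00179 and 0.00231). The mean over both probes gave 2.39 in knockout and 2.35 in wildtype cells.

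The classical heavy chains H2-K1 and H2-D1, which hold the peptide, changed less. H2-K1 stood at 16.73 and 16.73 in knockout cells with LPS, against 15.88 and 15.54 in basal knockout cells. Wildtype cells had 16.46 and 16.58 with LPS, against 15.96 and 15.86 at rest. No basal sample reached an LPS sample of its genotype, and the rise was 2.03-fold in knockout cells (log2 1.02 ± 0.15 SE, limma adjusted p = 0.00787) and 1.52-fold in wildtype cells (0.61 ± 0.10, adjusted p = 0.0101). The second H2-K1 probe rose by 1.18 ± 0.23 in knockout and 0.74 ± 0.16 in wildtype cells (adjusted p = 0.0167 and 0.0203).

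For H2-D1 the knockout cells gave 16.38 and 16.42 with LPS, against 15.73 and 15.31 at rest. Wildtype cells gave 16.28 and 16.15 with LPS, against 15.65 and 15.71 at rest. The LPS samples were again all above the basal ones, by 1.84-fold in knockout cells (log2 0.88 ± 0.17 SE, limma adjusted p = 0.0172) and 1.45-fold in wildtype cells (0.53 ± 0.10, adjusted p = 0.0143). H2-K1, H2-D1 and some other class I genes are near-identical paralogs, so a probe may read more than 1 of them, and the values of single heavy chains are uncertain to that extent.

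B2m, the shared light chain, had a change that passed in knockout cells and did not in wildtype cells. Knockout cells had levels of 17.36 and 17.47 with LPS, against 16.94 and 16.72 at rest, and these did not overlap. In wildtype cells the levels were 17.03 and 17.23 with LPS, against 17.04 and 16.92 at rest, and these did overlap. B2m rose in knockout cells (log2 0.59 ± 0.13 SE, limma adjusted p = 0.0229), and the estimate in wildtype cells was 0.15 ± 0.12 (adjusted p = 0.366). The test of the difference between the genotypes did not pass (0.44 ± 0.099, limma adjusted p = 0.178). B2m was brighter than 99.4% of all genes tested. The call in knockout cells was kept in 10 of 15 alternatives, and the wildtype estimate passed in 1 of 15, the scaling to the 75th percentile.

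The transporter subunits moved to different extents. Tap1 had 11.19 and 11.06 in knockout cells with LPS, against 8.35 and 8.18 at rest, and in wildtype cells 11.13 and 11.01 with LPS, against 8.40 and 8.52 at rest. The change was 7.26-fold in knockout cells (log2 2.86 ± 0.12 SE, limma adjusted p = 0.00065) and 6.11-fold in wildtype cells (2.61 ± 0.10, adjusted p = 0.000443). Its partner Tap2 had 14.40 and 14.94 in knockout cells with LPS, against 13.64 and 13.53 at rest, and in wildtype cells 15.16 and 15.23 with LPS, against 14.03 and 14.11 at rest. That was 2.12-fold in knockout cells (1.08 ± 0.20, adjusted p = 0.016) and 2.17-fold in wildtype cells (1.12 ± 0.095, adjusted p = 0.0017). LPS samples did not overlap basal samples for either subunit in either genotype, which is a description as for Nlrc5.

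Tapasin, encoded by Tapbp, lay between them. Its level was 14.81 and 15.14 in knockout cells with LPS, against 13.38 and 13.10 at rest, and 15.004 and 15.18 in wildtype cells with LPS, against 13.49 and 13.30 at rest. It rose 3.33-fold in knockout cells (log2 1.74 ± 0.17 SE, limma adjusted p = 0.00323) and 3.24-fold in wildtype cells (1.69 ± 0.12, adjusted p = 0.00121).

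**Figure D2:**
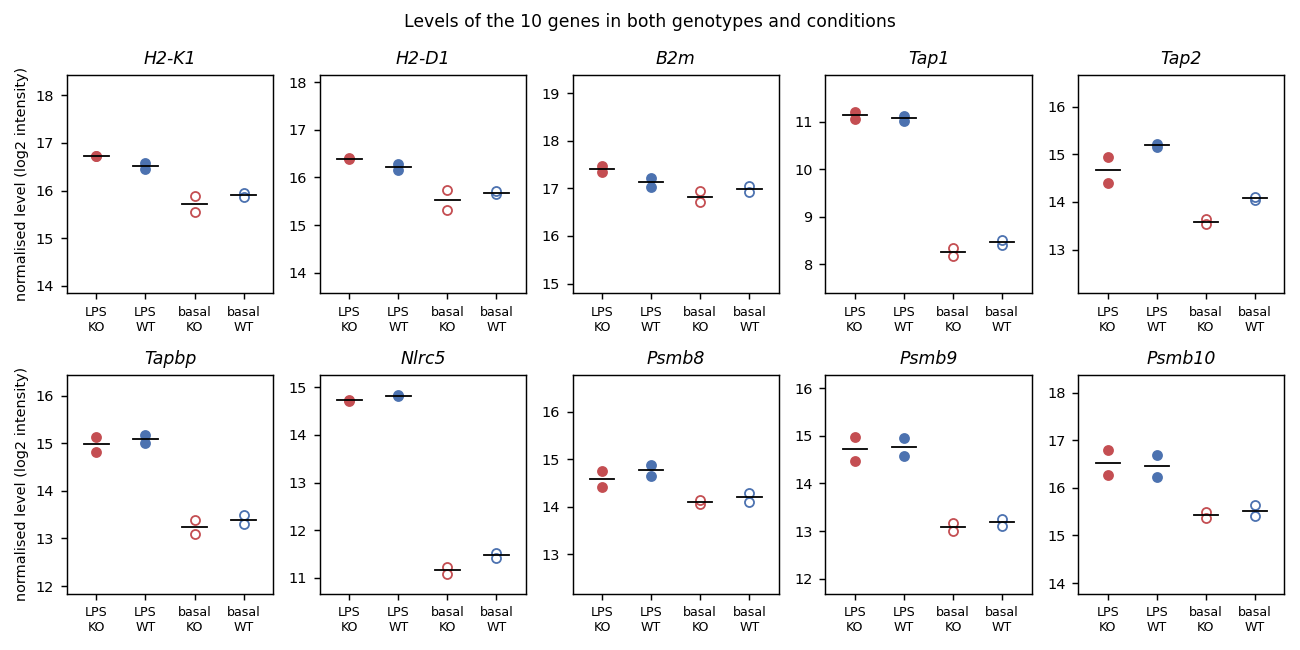
Normalised level (log2 intensity, vertical axis) of each gene in LPS knockout, LPS wildtype, basal knockout and basal wildtype cells. Points are single channels of an array (filled for LPS, open for basal), black lines are means of 2, and every panel has the same span, so that heights can be compared as changes within a gene but levels cannot be compared between genes. The gap between LPS and basal is widest for Nlrc5 and Tap1, and the basal and LPS wildtype points overlap for B2m.

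Among the immunoproteasome subunits, Psmb9 responded most. Knockout cells had Psmb9 levels of 14.47 and 14.97 with LPS, against 13.17 and 12.995 at rest, and wildtype cells had 14.57 and 14.96 with LPS, against 13.26 and 13.11 at rest. The increase was 3.12-fold in knockout cells (log2 1.64 ± 0.20 SE, limma adjusted p = 0.0052) and 2.99-fold in wildtype cells (1.58 ± 0.16, adjusted p = 0.00276). Psmb9 and Tap1 start within the shared 275-base stretch shown above, and their estimates given here differed by more than 1 log2 unit in each genotype. The size of that gap depends on the scaling. With scaling to the 75th percentile, values were taken relative to the median of all genes. Tap1 then had 2.57 and Psmb9 1.81 in knockout cells, and Tap1 had 2.32 and Psmb9 1.75 in wildtype cells. These gaps were below 1 log2 unit, with Tap1 still the higher.

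Psmb10 gave 16.27 and 16.79 in knockout cells with LPS, against 15.49 and 15.36 at rest, and 16.23 and 16.70 in wildtype cells with LPS, against 15.63 and 15.41 at rest. It rose 2.15-fold in knockout cells (log2 1.11 ± 0.20 SE, limma adjusted p = 0.0151) and 1.92-fold in wildtype cells (0.94 ± 0.19, adjusted p = 0.0178). Psmb8 had 14.42 and 14.75 in knockout cells with LPS, against 14.07 and 14.14 at rest, and 14.65 and 14.88 in wildtype cells with LPS, against 14.09 and 14.29 at rest. Its samples did not overlap, yet the change passed in wildtype cells alone (0.57 ± 0.13 SE, limma adjusted p = 0.0255) and was 0.48 ± 0.15 (adjusted p = 0.0609) in knockout cells, and the genotypes' difference was -0.093 ± 0.10 (adjusted p = 0.821). The wildtype call was kept in 12 of 15 alternatives, and the knockout change passed in 4 of 15. The 3 subunits enter the same particle, and their estimates spanned 0.48 to 1.64 in knockout and 0.57 to 1.58 in wildtype cells.

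The choice of scaling and of arrays touched the smaller responses. Scaling each channel to its 75th percentile moved the median of all genes up by 0.363 in knockout and 0.376 in wildtype cells, and relative to that shift all 10 genes stayed above 0 in both genotypes. Of the calls over all genes, 72.2% were then higher in knockout and 73.2% in wildtype cells, against 45.3% and 43.4%. Without basal array 2, 5 of 10 genes passed in knockout cells, and without either basal array, 5 of 10 passed in wildtype cells, with the lone basal array assumed to vary like the others.

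The loss of the knocked-out transcript was clear under LPS and much smaller at rest. Cdk5r1 had log2 ratios, knockout over wildtype, of -2.55 and -2.29 on the LPS arrays and -0.37 and -0.59 on the basal arrays. No test of Cdk5r1 is given here. Markers of macrophages were measured well above background in every channel for 7 of 7 genes with a probe, and markers of dendritic cells, which also grow with GM-CSF, for 9 of 10, with Xcr1 detected nowhere. Granulocyte markers differed between genotypes. Of 9 with a probe, 5 were lower in knockout cells under LPS, 5 at rest and 6 with both averaged, and none was higher. The shares of all genes that were lower were 5.23% under LPS and 8.22% averaged, and 4.87% passed in either direction at rest. Their summed intensity ranged from 92057 to 96275 in LPS knockout and 269415 to 294418 in LPS wildtype cells, and from 48990 to 79372 in basal knockout and 106787 to 169849 in basal wildtype cells. Of 7 macrophage markers, 2 were lower under LPS, 1 at rest and 3 averaged, and none was higher. Of 5 eosinophil, mast cell and basophil markers tested, 1 was higher and 2 were lower under LPS, and 2 were higher and 2 lower at rest and averaged. The summed intensity of that list ranged from 4990 to 6376 in LPS knockout and 12047 to 18247 in LPS wildtype cells. Of 9 dendritic cell markers tested, 2 were higher and 1 was lower under LPS and averaged, and none passed at rest. Of 6 stromal cell markers, 1 was higher and 1 lower under LPS, 1 was lower at rest and 2 were lower averaged. No tested marker of T and NK cells, B cells or erythroid cells passed between genotypes. In these bulk samples fewer cells of a type and less RNA per cell cannot be told apart, and the part of these marker differences in the results below was not tested. Dyes were not swapped, so dye and genotype cannot be told apart in a ratio of knockout over wildtype.

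The counts of class I genes that passed between genotypes lay near the shares of all genes. Under LPS, 2 of 10 genes passed the test, as did 12.4% of all genes. B2m was higher in knockout cells (0.28 ± 0.070 SE on the log2 scale, limma adjusted p = 0.0476), where 7.17% of all genes were higher. Tap2 was lower (-0.52 ± 0.12, adjusted p = 0.0361), where 5.23% of all genes were lower. At rest none of the 10 passed (4.87% of all genes did), although 10 of 10 estimates lay below 0, with a median of -0.16 beside 0.0024 over all genes. With the conditions averaged, Tap2 (-0.50 ± 0.083, adjusted p = 0.00988) and Nlrc5 (-0.21 ± 0.047, adjusted p = 0.0279) were lower in knockout cells, where 8.22% of all genes were lower and 18.2% passed in either direction. Apart from Tap2, the sizes under LPS and at rest were between -0.32 and 0.28.

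These genotype values depend on how dye bias was removed. Where each array's log ratios were centred on their median with no loess curve, the members' values were higher by 0.16 (Tap1) to 0.67 (B2m) under LPS and by 0.11 (Tap1) to 0.56 (B2m) at rest, while the median of all genes moved by 0.073 and 0.084. With that centring 7 genes passed as higher in knockout cells under LPS and 2 at rest, the median at rest turned to 0.20, and none was lower. Across all 23570 genes tested, 4633 were then higher and 859 lower under LPS, and 3812 were higher and 647 lower at rest. With Agilent's processed signals no member passed in either condition, where 1722 of all genes passed under LPS and 769 at rest.

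On each of the 4 arrays Tap2 was lower in knockout cells. The log2 ratios were -0.75 and -0.29 on the LPS arrays and -0.39 and -0.58 on the basal arrays, so the conditions overlap and its LPS minus basal difference was -0.035 ± 0.17 SE (limma adjusted p = 0.962). Averaged over conditions the knockout level was 0.705 of the wildtype level. That call was kept without any single array, and was not with Agilent's processed signals (adjusted p = 0.0597) or with median centring (-0.13, adjusted p = 0.18), though its sign was negative in these too. The call under LPS was lost without LPS array 1 (-0.29, adjusted p = 0.272) and without LPS array 2 (-0.75, adjusted p = 0.0582).

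Nlrc5 had ratios of -0.10 and -0.10 on the LPS arrays and -0.29 and -0.34 on the basal arrays. All 4 were below 0, and the basal estimate of -0.32 ± 0.066 SE just missed the threshold (limma adjusted p = 0.0503). Its dimmer probe gave -0.19 and 0.08 under LPS and 0.11 and 0.03 at rest, so the 2 probes disagree at rest. The averaged call was lost in 8 of 12 alternatives, among them every one that left out an array (-0.22 to -0.20), and the estimate turned to 0.11 with median centring.

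**Figure D3:**
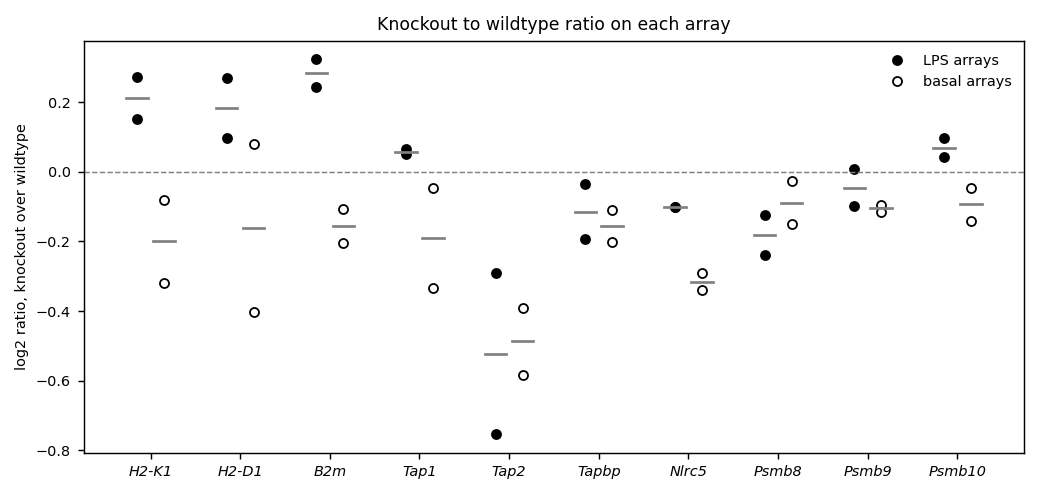
Log2 ratio of knockout over wildtype (vertical axis) for each gene on the LPS arrays (filled) and the basal arrays (open), with grey lines at the mean of 2 arrays. Tap2, Tapbp, Nlrc5 and Psmb8 lie below 0 on all 4 arrays. B2m, H2-K1, Tap1 and Psmb10 lie above 0 on both LPS arrays and below 0 on both basal arrays. With median centring in place of loess, 7 genes pass as higher under LPS, as do 4633 of all 23570 tested. B2m, H2-K1 and Psmb10 are then above 0 at rest too.

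For B2m, H2-K1, Tap1 and Psmb10 both LPS arrays lay above 0 and both basal arrays below 0. The share of all genes with this pattern is not given here, so the signs alone are a description. With median centring the basal estimates were 0.41 for B2m, 0.27 for H2-K1, 0.35 for Psmb10 and -0.079 for Tap1. B2m had ratios of 0.32 and 0.24 on the LPS arrays and -0.11 and -0.20 on the basal arrays. H2-K1 had 0.27 and 0.15 on the LPS arrays and -0.08 and -0.32 on the basal arrays, and its second probe had 0.17 and 0.06 on the LPS arrays and -0.12 and -0.55 on the basal arrays. The arrays of the conditions do not overlap for B2m or H2-K1, but the test of the difference over all genes did not pass: it was 0.44 ± 0.099 SE for B2m (limma adjusted p = 0.178) and 0.41 ± 0.12 for H2-K1 (adjusted p = 0.283). None of the 10 genes passed that test, which 0.403% of all genes did. At an unadjusted p under 0.05 were B2m (0.00366) and H2-K1 (0.0116), as were 2447 of all 23570 genes tested. With adjusted p, none of the 10 passed in any of the 13 alternatives. The B2m call under LPS passed in 4 of 12 alternatives and was lost without any single array (adjusted p from 0.0575 to 0.293).

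H2-D1 had 0.10 and 0.27 on the LPS arrays and 0.08 and -0.40 on the basal arrays, and the basal arrays thus disagreed in sign. Tap1 had 0.07 and 0.05 on the LPS arrays and -0.05 and -0.33 on the basal arrays, with LPS estimates of 0.058 ± 0.086 SE. Tapbp had -0.19 and -0.04 on the LPS arrays and -0.11 and -0.20 on the basal arrays. Its estimates were -0.11 under LPS and -0.16 at rest, and did not pass (limma adjusted p = 0.36 and 0.311).

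No immunoproteasome subunit passed between genotypes. Psmb8 had ratios of -0.24 and -0.12 on the LPS arrays and -0.03 and -0.15 on the basal arrays. Psmb9 had -0.10 and 0.01 on the LPS arrays and -0.09 and -0.12 on the basal arrays, and Psmb10 had 0.04 and 0.10 on the LPS arrays and -0.14 and -0.05 on the basal arrays. The estimates of the 3 genes were within -0.18 to 0.069, and their adjusted p by limma was at least 0.16 in each condition.

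H2-K1 and Tap1 were spotted 10 times on each array, which shows the error of a single spot's ratio. The standard deviation of the log2 ratio over 10 spots was 0.024 to 0.039 for H2-K1 and 0.035 to 0.058 for Tap1. The 2 basal arrays differed by more than that: H2-K1 spots ranged from -0.11 to -0.036 on basal array 1 and from -0.35 to -0.28 on basal array 2. Tap1 spots ranged from -0.14 to 0.027 on basal array 1 and from -0.42 to -0.22 on basal array 2. For both genes the gap between the basal arrays was wider than the spread of spots within either. The levels of a single channel, from which the LPS changes were computed, had wider standard deviations over the 10 spots than the ratios. These were 0.14 to 0.22 for H2-K1 and 0.15 to 0.19 for Tap1.

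**Figure D4:**
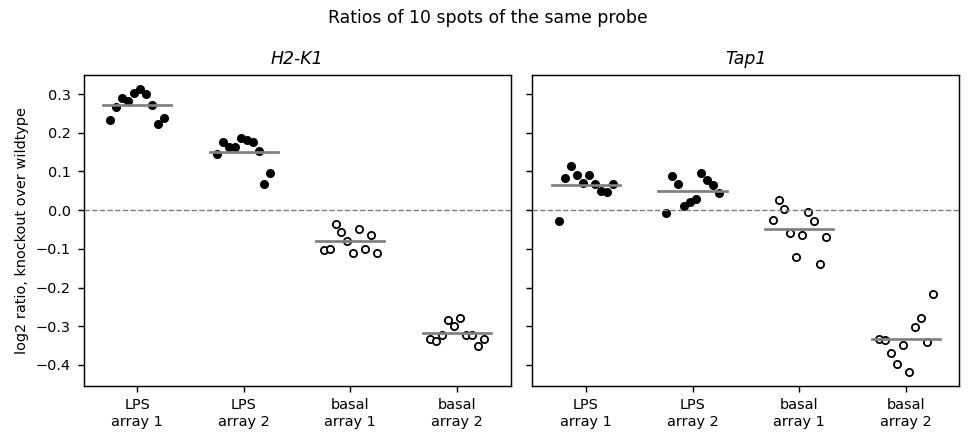
Log2 ratio of knockout over wildtype (vertical axis) of the 10 spots of the same probe on each of 4 arrays, for H2-K1 and Tap1, with filled points for LPS arrays, open points for basal arrays and grey lines at the mean. The spots of an array lie close together, and the 2 basal arrays do not overlap for either gene.

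The other genes of the route are given by list. Of 17 regulators of class I transcription, 13 rose and 1 fell with LPS in knockout cells, and 11 rose and 3 fell in wildtype cells, with medians of 0.75 and 0.70. Across all 23570 genes tested, 4457 rose and 5383 fell in knockout cells, and 4265 rose and 5557 fell in wildtype cells. The interferon regulatory factors Irf1 (2.44 ± 0.19 SE in knockout, 2.41 ± 0.18 in wildtype cells) and Irf8 (3.38 ± 0.29 in knockout, 2.93 ± 0.18 in wildtype cells), and Nfkb1 (2.46 ± 0.16 in knockout, 2.52 ± 0.12 in wildtype cells), which encodes an NF-kappaB subunit, were among those that rose, all with a limma adjusted p of at most 0.0024. Members of the complex that NLRC5 joins went different ways: Rfx5 rose (0.58 ± 0.101 in knockout, 0.54 ± 0.093 in wildtype cells) and Rfxap fell (-0.66 ± 0.11 in knockout, -0.53 ± 0.098 in wildtype cells). With scaling to the 75th percentile Rfxap did not pass (-0.30 in knockout, -0.16 in wildtype cells). Ciita, the coactivator of class II genes, had -0.32 ± 0.16 in knockout and -0.19 ± 0.14 in wildtype cells and did not pass.

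Between genotypes, 2 of the 17 regulators passed under LPS, where 12.4% of all genes did, and both were higher in knockout cells: Irf8 by 0.57 ± 0.096 SE (limma adjusted p = 0.014) and Nfya, a Y box-binding subunit, by 0.49 ± 0.068 (adjusted p = 0.0073). Nfya passed with median centring (0.61) and with Agilent's processed signals too (0.55, adjusted p = 0.045), and Irf8 did not with the processed signals (0.49, adjusted p = 0.103). None of the 17 passed at rest, where 4.87% of all genes did. With median centring 6 of the 17 were higher under LPS and 3 at rest, as were 4633 and 3812 of all 23570 genes tested.

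Of 16 other class I heavy chains listed, 11 had a probe and 9 were tested. With LPS 7 rose and 1 fell in each genotype, with medians of 1.12 in knockout and 0.80 in wildtype cells. Across all 23570 genes tested, 4457 rose and 5383 fell in knockout cells, and 4265 rose and 5557 fell in wildtype cells. H2-T10 rose by 2.70 ± 0.21 SE in knockout and 2.70 ± 0.25 in wildtype cells, H2-T23, which encodes the NK cell ligand Qa-1, by 1.29 ± 0.24 in knockout and 0.80 ± 0.16 in wildtype cells, and H2-M3, which presents formylated peptides, by 1.103 ± 0.15 in knockout and 1.14 ± 0.10 in wildtype cells. Mr1, which presents vitamin B metabolites, was the one that fell (-1.57 ± 0.097 in knockout, -1.71 ± 0.094 in wildtype cells, limma adjusted p = 0.0013 and 0.00075). Between genotypes none of the 9 passed under LPS or at rest with its brightest probe, but dimmer probes of Cd1d1 (0.58 ± 0.12, adjusted p = 0.0259) and H2-Q10 (1.17 ± 0.15, adjusted p = 0.00481) were higher in knockout cells under LPS. With conditions averaged H2-M3 was higher (0.27, adjusted p = 0.0452) and Mr1 lower (-0.26, adjusted p = 0.0165), where 18.2% of all genes passed. In that comparison the processed signals and the authors' deposited log ratios each gave 0 of the 9 higher and 1 lower. Median centring gave 6 higher under LPS and 1 at rest, where 4633 and 3812 of all 23570 genes tested were higher. The processed signals gave 1 lower under LPS, where 788 of all genes were lower. Probes of the H2 genes among these may share the paralog limit given for H2-K1.

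Peptide loading partners did not move as a group. Tapbpl, which encodes the tapasin-like editor TAPBPR, rose by 2.64 ± 0.16 SE in knockout and 2.57 ± 0.11 in wildtype cells (limma adjusted p = 0.0011 and 0.00047), and Erap1, the aminopeptidase that trims peptides, by 0.58 ± 0.0999 in knockout and 0.66 ± 0.0955 in wildtype cells. The chaperone calnexin, Canx, fell by 0.74 in knockout cells (-0.74 ± 0.10) and by 0.66 in wildtype cells (-0.66 ± 0.103), and did not pass with scaling to the 75th percentile (-0.24 in knockout, -0.14 in wildtype cells). In all 2 of 6 rose and 1 fell in knockout cells, and 3 of 6 rose and 1 fell in wildtype cells. Across all 23570 genes tested, 4457 rose and 5383 fell in knockout cells, and 4265 rose and 5557 fell in wildtype cells. Calr, which encodes calreticulin, was lower in knockout cells under LPS (-0.35 ± 0.073, adjusted p = 0.030) and did not pass with the processed signals (-0.32, adjusted p = 0.12) or median centring (-0.04).

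The constitutive counterparts of the immunoproteasome subunits gave mixed responses. Psmb5, replaced by Psmb8, fell in knockout cells (-0.52 ± 0.15 SE, limma adjusted p = 0.047) and had -0.20 ± 0.12 (adjusted p = 0.25) in wildtype cells, and with scaling to the 75th percentile these turned to 0.12 and 0.46. Agilent's processed signals gave -0.48 in knockout cells (adjusted p = 0.11), quantile scaling of the 8 channels gave no call, and a second Psmb5 probe gave -0.28 (adjusted p = 0.129). Psmb6, replaced by Psmb9, rose by 0.53 ± 0.12 in knockout and 0.61 ± 0.095 in wildtype cells, and Psmb7, replaced by Psmb10, by 0.57 ± 0.097 in knockout and 0.49 ± 0.14 in wildtype cells. The PA28 activator genes Psme1 (1.06 ± 0.18 in knockout, 0.99 ± 0.15 in wildtype cells) and Psme2 (1.23 ± 0.15 in knockout, 0.96 ± 0.10 in wildtype cells) rose in both genotypes, and the assembly chaperones Psmg1 (-1.92 ± 0.17 in knockout, -1.55 ± 0.15 in wildtype cells) and Psmg2 (-1.45 ± 0.20 in knockout, -1.20 ± 0.14 in wildtype cells) fell in both.

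The other 20S subunits had medians of 0.14 in knockout and 0.18 in wildtype cells and the 19S cap subunits -0.28 and -0.22, beside -0.015 and -0.0081 over all genes. Of 11 other 20S subunits, 2 rose and 2 fell in knockout cells, and 4 rose and 1 fell in wildtype cells. Of 17 subunits of the 19S cap, 1 rose and 3 fell in knockout cells, and 2 rose and 5 fell in wildtype cells. Across all 23570 genes tested, 4457 rose and 5383 fell in knockout cells, and 4265 rose and 5557 fell in wildtype cells. Psma6 was the 20S subunit with the highest estimate (1.38 ± 0.16 SE in knockout, 1.26 ± 0.13 in wildtype cells). These counts turn with the scaling: at the 75th percentile 5 cap subunits rose and 1 fell in knockout cells, and 8 rose and 0 fell in wildtype cells. Among all genes tested, 10827 then rose and 4165 fell in knockout cells, and 11486 rose and 4215 fell in wildtype cells.

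Psme3, which encodes the nuclear PA28 gamma activator, was the gene of these proteasome lists that passed as higher in knockout cells. It was higher under LPS (0.86 ± 0.076 SE, limma adjusted p = 0.0015) and at rest (0.73 ± 0.076, adjusted p = 0.0041), and it passed in both with median centring and with the processed signals. The cap subunits Psmd2, Psmd3, Psmd4 and Psmd13 were lower with conditions averaged (-0.49 to -0.23), which is 4 of 17 where 8.22% of all genes were lower. None of the 17 was called lower with the processed signals, the authors' deposited log ratios or median centring, and 6 were higher with the last. With median centring 7262 of all 23570 genes tested were higher.

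**Figure D5:**
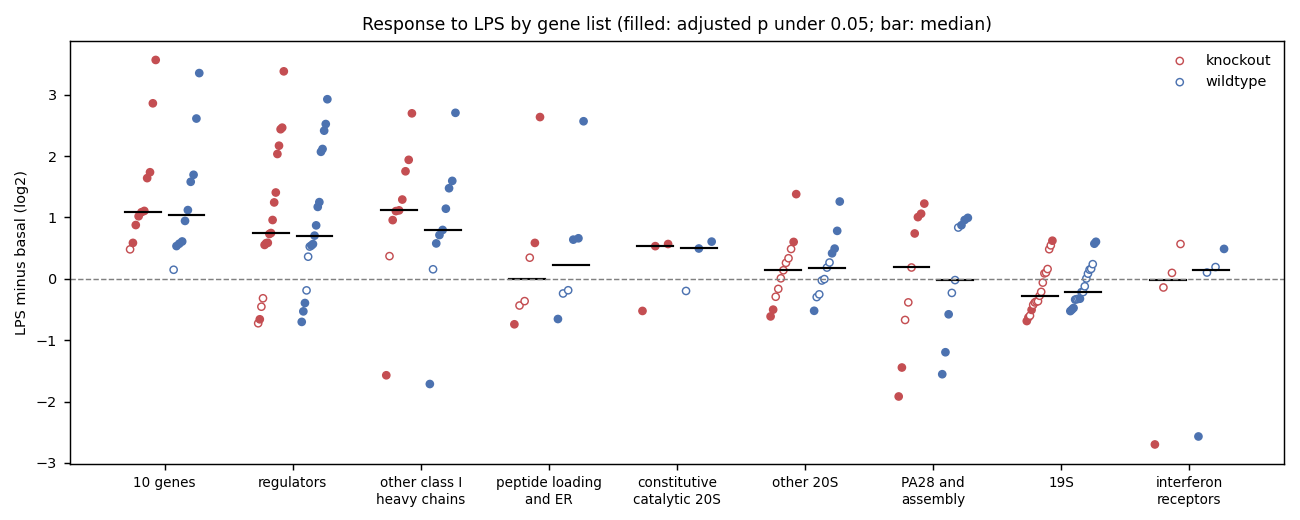
LPS minus basal on the log2 scale (vertical axis) for the 10 genes and 8 lists of related genes, in knockout (red) and wildtype cells (blue). Each point is a gene, filled where the limma adjusted p was under 0.05, and black bars are medians. The 10 genes lie above 0 in both genotypes, regulators and other heavy chains have medians of 0.70 to 1.12, and the 19S cap has medians of -0.28 and -0.22, which are above 0 with scaling to the 75th percentile.

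Likeness was measured as the root mean square distance between centred log2 levels over the 8 channel values, among 15976 genes with a symbol. Nearest to the median profile of the 10 genes were Ilrun (0.066), Gucd1 (0.070), Svbp (0.092), Adgrb1 (0.094) and Anxa3 (0.095). The members themselves lay farther from their own median, from 0.14 for Psmb10 to 1.16 for Nlrc5. Nearest to Nlrc5 were Daxx (0.087), Trim30a (0.12), Mxd1 (0.12), Sp140 (0.14) and Ikbke (0.15), and Tap1 was the nearest member (0.38). The 8 values come in pairs from 4 arrays, and the distances are a description with no test.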

How the data were processed

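Total RNA (10 µg per labelling) of knockout (Cy5) and wildtype (Cy3) cells was hybridised to 4 Agilent arrays on 1 slide. Per the file headers, the deposited scanner files hold median intensities and background intensities of each spot from Feature Extraction 11.5.1.1, while the submitters' processing notes name 9.3.2.1. The authors' deposited value table holds log2 ratios, which equal the log2 ratios of the processed signals within 0.001 after a constant per array was removed. The rule behind the constant was not given in the sources used here. These ratios served as an alternative. Column medians of that table were 0.016, 0.034, 0.029 and 0.031.

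Intensities were background-corrected (normexp, offset 50), normalised by loess within arrays and Aquantile between them, and tested with limma 3.58.1 in R 4.3.3 (lmFit, eBayes, two-sided, Benjamini-Hochberg over 23570 genes, threshold 0.05). Control spots and 207 to 255 flagged spots per array were left out. Probes were kept if 1 channel was well above background on 2 of 4 arrays (28635 kept), and the brightest stood for its gene. Accessions were named through a RefSeq table (GRCm38.p6; 27508 of 39429 probes), while the headers name mm9. In Cy5, 62.1% to 65.0% of probe spots stood well above background, and in Cy3, 68.3% to 71.0%. The number of arrays limits precision. The script was tested on simulated data.

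The members, lists and tests were chosen with earlier results of these data known. Named genes are all members, and genes of 8 lists with the 5 nearest profiles; those singled out from lists were chosen after their values were seen. Same-numbered samples of the 2 conditions did not deviate together (r = -0.16 for ratios), so the number was not used as a pairing. Alternatives were other signals, centring, background correction, filters, probe rules, scaling and leaving out each array.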

Additional observations from a re-analysis of the deposited data

How the results depend on the processing

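With 2 arrays per condition and fixed dyes, small genotype ratios are the least certain values, and no alternative removes the dye. The LPS response of each of the 10 genes stayed above 0 in all 15 alternatives in both genotypes. Leaving out 1 array gave 5 to 10 members higher in knockout cells (4088 to 9602 of all genes called) and 5 to 9 in wildtype cells (5200 to 8859), and scaling to the 75th percentile gave 14992 and 15701 genes called. For knockout against wildtype under LPS, members called higher were 0 with the processed signals, with no background correction, with every probe on its own, with the authors' deposited log ratios and without any 1 array (0 to 0), and 7 with median centring. Members called lower were 0 with the processed signals, median centring and the authors' ratios, and 0 to 1 without 1 array. Over all genes the calls there were 1722, 5492 and 1741 with processed signals, median centring and the authors' ratios, and 410 to 3146 without 1 array, against 2922. At rest, median centring gave 2 members higher and 4459 genes called against 1147, no filter on dim probes gave 1 member lower (Nlrc5), and leaving out 1 array gave 708 to 775 genes. With conditions averaged, median centring gave 7 members higher. Members lower there were 0 with processed signals, median centring and the authors' ratios, 1 with the mean over probes and 1 to 1 without 1 array. All genes called were 2838, 8939 and 2827 with those 3 signals and 1713 to 2990 without 1 array, against 4281. Median centring reversed B2m (0.41) and Psmb10 (0.35) at rest, Tapbp (0.34), Nlrc5 (0.33) and Psmb9 (0.38) under LPS, and Tapbp (0.23), Nlrc5 (0.11), Psmb8 (0.24), Psmb9 (0.27) and Psmb10 (0.50) with conditions averaged. It leaves out the loess curve, and the cause of the difference was not tested further. Calls higher were then 85.5% of calls at rest, 84.4% under LPS and 81.2% averaged, against 69.3%, 57.8% and 54.8%. The difference of the knockout effect had 95 genes called, and 6, 228, 8 and 34 with the processed signals, median centring, the authors' ratios and the filter on all 4 arrays, and 4 to 198 without 1 array. With the replicate number as a block it had 58, and the block lost the B2m response in knockout cells (adjusted p = 0.0539) and no other call of a member. The 2 conditions' same-numbered arrays deviated with r = -0.16, and the number was not used as a pairing. The labels name no animals, so whether same-numbered samples share a source is not known.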

Other observations

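Genes of the interferon receptors differed from each other in the response to LPS. Ifngr1, which encodes the ligand-binding chain of the interferon gamma receptor, fell with LPS by 2.70 in knockout cells (-2.70 ± 0.10 SE on the log2 scale, limma adjusted p = 0.00059) and by 2.57 in wildtype cells (-2.57 ± 0.21, adjusted p = 0.0015). Its partner chain Ifngr2 had 0.57 ± 0.16 in knockout and 0.49 ± 0.13 in wildtype cells and passed in wildtype cells (adjusted p = 0.0502 in knockout and 0.0383 in wildtype cells). Ifnar1 and Ifnar2, the type I interferon receptor chains, did not pass with their brightest probes, and 2 other Ifnar1 probes did. One gave 0.51 ± 0.12 in knockout and 0.63 ± 0.090 in wildtype cells (limma adjusted p = 0.0291 and 0.00637), and the other gave 1.19 ± 0.11 in knockout and 1.21 ± 0.11 in wildtype cells (adjusted p = 0.00224 and 0.0021).

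Probes of the heavy chain H2-Q10 disagreed on the genotype. The brighter probe gave a log2 ratio of knockout over wildtype of 0.21 ± 0.093 SE under LPS (limma adjusted p = 0.20), and the dimmer probe gave 1.17 ± 0.15 (adjusted p = 0.00481). At rest they gave -0.25 ± 0.093 and 0.10 ± 0.15, and neither passed (adjusted p = 0.20 and 0.756). Which transcripts each probe reads among the class I paralogs was not tested.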
